A study of Mus musculus with 8 samples.

Results

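The transforming growth factor beta (TGF-beta) ligands, their receptors and the latency proteins that store them in the matrix were followed in the posterior capsule of the mouse knee. The 10 members were taken by gene symbol, namely the ligands Tgfb1, Tgfb2 and Tgfb3, the receptors Tgfbr1, Tgfbr2 and Tgfbr3, and the latent TGF-beta binding proteins Ltbp1, Ltbp2, Ltbp3 and Ltbp4. All 10 were found among the 16464 genes of the deposited table. RNA came from the posterior capsule of wild type male C57BL/6 mice labelled as 10 weeks old, while the series' design text gives 8 weeks. The cast group (4 libraries) wore a cast that fixed the knee at 140 degrees, and tissue was taken after 2 weeks, and the other group (4 libraries) is labelled naive, with no more said of its handling. No label says whether each library came from a separate mouse, so the p-values here speak of the spread among libraries, which may be technical. Values are normalised read counts, which summed to 972758 to 1045293 per library.

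TGF-beta is made with its own propeptide, which stays wrapped around the growth factor and keeps it inactive. In most connective tissue this small latent complex is joined to an LTBP, which ties it to fibrillin and fibronectin fibres until integrins or proteases set the ligand free. Free ligand brings the type II receptor (Tgfbr2) and the type I receptor (Tgfbr1) together, and the type I receptor then phosphorylates Smad2 and Smad3. The pathway is known for driving fibroblasts to make and contract matrix, and it is much studied in stiffening of the joint capsule.

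The libraries held 5956148 to 7381255 recovered reads in cast and 1503880 to 6805349 in naive capsules, and naive replicate 4 was the shallowest. The log2 values of naive replicate 4 correlated with those of the other naive libraries at 0.903 to 0.915 across genes, against 0.983 to 0.985 among those others (genes are not independent replicates). Markers of capsule fibroblasts, all 8 of which were in the table, summed to 19251 to 25592 in cast and 16902 to 25441 in naive libraries, so the groups overlapped. Markers of neutrophils and marrow precursors (9 of 10 in the table) summed to 574 to 5620 in cast and 12.1 to 56.3 in naive libraries. Erythroid markers (7 of 8) summed to 3940 to 19837 in cast and 1174 to 1773 in naive libraries, and T cell markers (7 of 8) to 22.7 to 38.7 in cast and 5.42 to 6.47 in naive libraries. Skeletal muscle markers (12 of 12) summed to 14.0 to 323 in cast and 98.3 to 2452 in naive libraries, with the lowest naive sum in replicate 4. Ly6g, Ahsp and Trbc2 of these lists were not in the table used here. The part of these cells in the results on the TGF-beta genes was not tested.

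Setting cast against naive capsules asks which of these genes changed when the knee was immobilised. Ltbp4 fell after casting, and the other 9 members did not pass the test. All 10 members passed the filter on low values. Of the 15120 genes tested, 5.46% fell and 12.0% changed in either direction, so 1 of 10 is near the background. The median log2 fold change was 0.03 over the 10 members and 0.07 over all tested genes. Groups did not overlap for Ltbp4, Ltbp2 and Tgfbr3, 3 of 10 members against 20.5% of all tested genes. Each log2 fold change is the cast mean minus the naive mean of log2(value + 1), which understates the change of low genes. Adjusted p-values come from limma, with Benjamini-Hochberg adjustment over all tested genes.

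**Figure D1:**
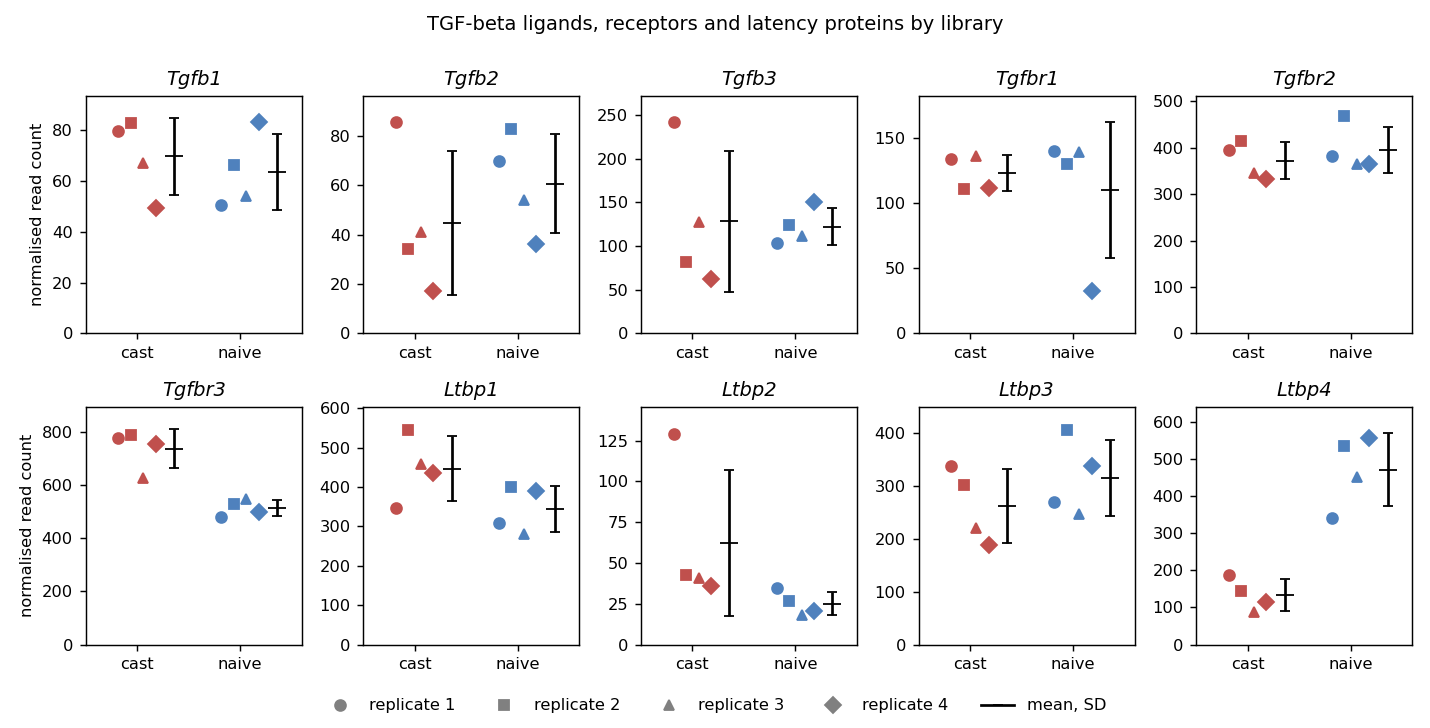
Normalised read counts (vertical axes, from 0) of the 10 members in each library, cast left of naive, with the mean and SD beside each group of 4. Ltbp4 sits between 86.7 and 188 in cast libraries, below every naive library, while Ltbp2 and Tgfbr3 sit above every naive library and the other 7 members overlap.

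**Figure D2:**
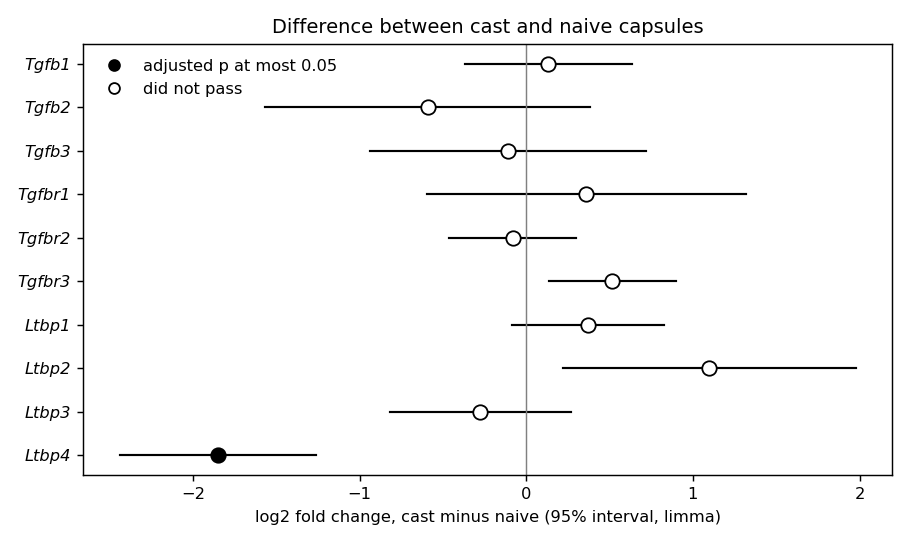
Log2 fold change, cast minus naive, of each member with its 95% interval from limma (horizontal axis). Ltbp4, at -1.85, is the filled point that passed the test, and the intervals of Tgfbr3 and Ltbp2 lie above 0 without passing after adjustment.

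Among the latency proteins, Ltbp4 is known both for tying latent TGF-beta to the matrix and for helping elastic fibres to assemble. Ltbp4 (ENSMUSG00000040488.17, chromosome 7, 27305136 to 27337692, minus strand, build GRCm38) had 188, 145, 86.7 and 114 normalised counts in cast replicates 1 to 4, against 342.5, 536, 452 and 558 in naive replicates 1 to 4. Every cast library was below every naive library, and the highest cast value was in replicate 1. Ltbp4 averaged 133 ± 43.6 in cast and 472 ± 97.8 in naive capsules (SD, n = 4 each), a log2 fold change of -1.85 (SE 0.26, 95% interval -2.44 to -1.26, adjusted p = 0.00283). Of the 15120 genes tested, 178 had a lower log2 fold change, 144 of them past the threshold. The counts rest on 3600 cast and 9193 naive reads. With the muscle covariate its log2 fold change was -1.84 (adjusted p = 0.0136). Leaving out cast replicates 1 and 2 gave -2.21 (adjusted p = 0.00828), and the cast libraries that remained still had neutrophil and marrow marker sums of 574 and 757, above every naive library. In bulk tissue, fewer cells of a type that makes a transcript and less of that transcript per cell cannot be told apart.

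RefSeq gives 3 start windows for Ltbp4, of which 2 largely overlap, and a count per gene does not say which start was used. The sequences before the upstream start and before 1 of the overlapping pair are printed because Ltbp4 was the member that passed the test. That of Ltbp2 is printed because its estimate was the highest of the members, although it did not pass. They are from RefSeq (GRCm38.p6), 5′ to 3′ on the gene's strand, ended where the annotated UTR begins. RefSeq promoter windows were matched for 8 of the 10 members (not Tgfb3 and Tgfbr3). Capitals mark matches on either strand to CAGAC, the core of the Smad box, to GGGCGG, the core of an Sp1 box, or to TGANTCA, an AP-1 site.
Ltbp4, upstream start, chr7:27337693-27337862, minus strand: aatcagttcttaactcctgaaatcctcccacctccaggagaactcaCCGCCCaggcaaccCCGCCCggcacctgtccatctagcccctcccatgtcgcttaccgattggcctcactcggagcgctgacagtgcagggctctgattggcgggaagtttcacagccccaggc
Ltbp4, downstream start, chr7:27333664-27333913, minus strand: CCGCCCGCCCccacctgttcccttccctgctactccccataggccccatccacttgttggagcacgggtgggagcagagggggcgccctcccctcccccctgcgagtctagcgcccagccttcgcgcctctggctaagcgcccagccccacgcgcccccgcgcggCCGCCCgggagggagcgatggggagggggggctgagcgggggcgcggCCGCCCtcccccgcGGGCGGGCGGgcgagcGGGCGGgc
Ltbp2, chr12:84876533-84876741, minus strand: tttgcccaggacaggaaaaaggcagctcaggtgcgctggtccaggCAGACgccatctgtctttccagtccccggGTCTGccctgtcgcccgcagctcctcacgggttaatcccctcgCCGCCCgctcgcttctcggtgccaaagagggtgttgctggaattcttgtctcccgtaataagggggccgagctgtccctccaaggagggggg

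The window of 170 bases before the upstream Ltbp4 start had 2 matches to GGGCGG and 0 to the other motifs. The window of 250 bases before the downstream start had 7 matches to GGGCGG, some of them overlapping each other, and 0 to the other motifs, with 79.2% G and C. The Ltbp2 window of 209 bases had 2 matches to CAGAC, 1 to GGGCGG and 0 to TGANTCA, and it lies in an exon of the antisense gene D030025P21Rik. Over the 250-base windows of 32851 RefSeq starts, GGGCGG was found in 32.7%, CAGAC in 42.2% and TGANTCA in 6.75%. Over the same stretch as the shorter windows, GGGCGG was in 19.5% of all starts for 170 bases and CAGAC in 37.1% for 209 bases. Among the other members matched, CAGAC was in a window of Tgfb2, Tgfbr2 and Ltbp3, whose estimates were below 0. It was also in a window of Ltbp1 and Tgfbr1, whose estimates were above 0, and not in that of Tgfb1. These are matches of letters, and no binding was measured.

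Ltbp2 is the family member that, in work on the human protein, does not bind latent TGF-beta and is found on elastic microfibrils. Ltbp2 (ENSMUSG00000002020.15, chromosome 12, 84783212 to 84876532, minus strand) had 129, 42.7, 40.8 and 35.9 normalised counts in cast replicates 1 to 4, against 34.7, 26.8, 18.4 and 20.7 in naive replicates 1 to 4. The groups did not overlap, although the lowest cast library was close to the highest naive library and cast replicate 1 stood far above the rest. It averaged 62.2 ± 44.9 in cast and 25.1 ± 7.28 in naive capsules and did not pass (SD, n = 4 each; log2 fold change 1.10, SE 0.39, 95% interval 0.22 to 1.98, adjusted p = 0.104). Without cast replicate 1 the log2 fold change of Ltbp2 was 0.68 (adjusted p = 0.119), and the gene passed with DESeq2 on recovered reads (1.30, adjusted p = 0.0242) and with the muscle covariate (1.81, adjusted p = 0.0355). The antisense gene D030025P21Rik shares 764 bases of exon with Ltbp2, and whether reads were counted by strand is not given in the sources used here. It had 0.133 to 0.682 normalised counts in cast and 0 to 0.647 in naive libraries.

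Ltbp1 links latent TGF-beta to fibronectin and fibrillin fibres in fibroblast cultures. Ltbp1 (ENSMUSG00000001870.16, chromosome 17, 75005568 to 75392512, plus strand) had 347, 546, 459 and 435 normalised counts in cast replicates 1 to 4, against 308, 399, 281 and 390 in naive replicates 1 to 4. All but 1 cast library lay above all naive libraries, the exception being cast replicate 1. It averaged 447 ± 81.9 in cast and 345 ± 59.05 in naive capsules (SD, n = 4 each; log2 fold change 0.37, 95% interval -0.09 to 0.83, adjusted p = 0.287), and it passed with array weights (0.54, adjusted p = 0.0302), which give less weight to cast replicate 1 and naive replicate 4. Ltbp3 is a secretion partner of TGF-beta that is studied mainly in bone and cartilage. Ltbp3 (ENSMUSG00000024940.11, chromosome 19, 5740904 to 5758532, plus strand) had 338, 302, 220 and 188 normalised counts in cast replicates 1 to 4, against 269, 405, 247 and 337 in naive replicates 1 to 4. The groups overlapped widely, and the difference did not pass (log2 fold change -0.28, 95% interval -0.82 to 0.27, adjusted p = 0.518).

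The make-up of the LTBP family is given per kilobase of the principal transcript in the GENCODE M21 annotation, as a description with no test. Ltbp4 made up 10.1% to 18.3% of the LTBP total per kilobase in cast libraries, against 34.6% to 43.7% in naive libraries. Ltbp1 made up 37.3% to 59.4% in cast libraries and 30.1% to 34.4% in naive libraries. The groups did not overlap for either share. Shares of a family add up to a fixed whole, so these are not separate results. The counts of Ltbp1 themselves overlapped between the groups. For each unit of Ltbp1 per kilobase there were 0.17 to 0.49 units of Ltbp4 in cast libraries and 1.01 to 1.45 in naive libraries. Ltbp2 made up 3.18% to 10.3% in cast and 1.25% to 2.86% in naive libraries, and Ltbp3 23.8% to 34.1% in cast and 24.8% to 29.6% in naive libraries. Per kilobase of the union of all exons, an alternative added after seeing the data, Ltbp4 made up 15.7% to 25.4% in cast and 45.8% to 55.6% in naive libraries, and Ltbp1 28.3% to 50.2% in cast and 20.9% to 24.9% in naive libraries. Per kilobase of the principal transcript, the LTBP total itself was 152 to 204 counts per kilobase in cast and 184 to 264 in naive libraries, so it overlapped.

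**Figure D3:**
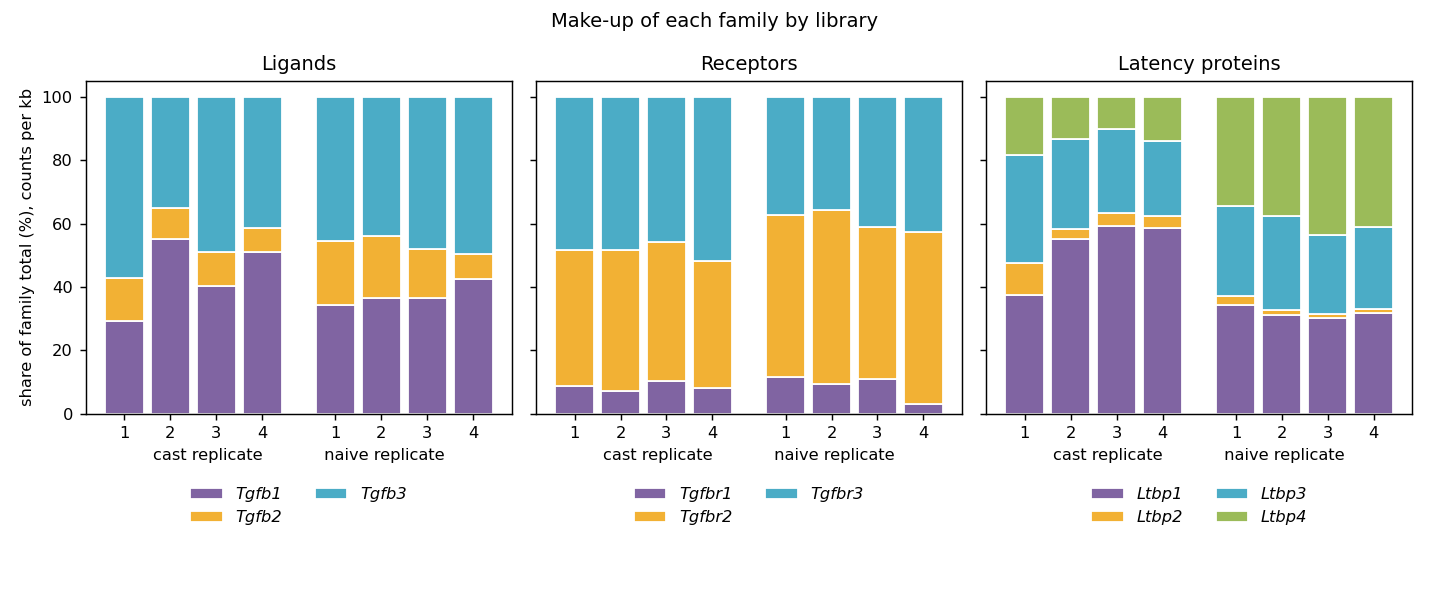
Share of each member (vertical axis, percent of the family total in counts per kilobase of the principal transcript) among the ligands, the receptors and the latency proteins, with a bar for each library and cast left of naive. Ltbp4 takes 10.1% to 18.3% of the latency proteins in cast libraries and 34.6% to 43.7% in naive libraries, and Tgfbr3 takes 45.7% to 51.9% of the receptors in cast libraries and 35.6% to 42.7% in naive libraries.

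None of the 3 ligands passed the test. Tgfb1, the ligand best known from inflammation and fibrosis, lies on chromosome 7 (ENSMUSG00000002603.15, 25687002 to 25705077, plus strand). It had 79.8, 82.9, 67.2 and 49.5 normalised counts in cast replicates 1 to 4, against 50.5, 66.3, 54.1 and 83.4 in naive replicates 1 to 4. Its groups covered nearly the same range. It averaged 69.8 ± 15.2 in cast and 63.6 ± 14.9 in naive capsules (SD, n = 4 each; log2 fold change 0.13, adjusted p = 0.742), and the 95% interval of -0.37 to 0.63 spans folds of 0.775 to 1.55.

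Tgfb2, whose propeptide lacks the integrin-binding RGD motif of the other ligands, lies on chromosome 1 (ENSMUSG00000039239.14, 186622792 to 186705989, minus strand). It had 85.7, 34.2, 41.0 and 17.3 normalised counts in cast replicates 1 to 4, against 69.9, 82.8, 53.9 and 36.2 in naive replicates 1 to 4. Cast replicate 1 was the highest of all 8 libraries, while the other 3 cast libraries lay below 3 of the 4 naive ones. The log2 fold change was -0.59 (95% interval -1.57 to 0.38, adjusted p = 0.434), and leaving out both naive replicate 4 and cast replicate 1, a pair chosen after their values were seen, gave -1.20 (adjusted p = 0.0219).

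Tgfb3, a ligand also expressed in tendon and palate development, lies on chromosome 12 (ENSMUSG00000021253.7, 86056745 to 86079041, minus strand). It had 242, 82.1, 127 and 62.4 normalised counts in cast replicates 1 to 4, against 104, 124, 111 and 151 in naive replicates 1 to 4. The cast libraries enclosed the naive range, with replicate 1 above it and replicates 2 and 4 below it. The log2 fold change was -0.11 (95% interval -0.94 to 0.72, adjusted p = 0.880), and the ratio of group means was 1.05, so the mean and the log2 estimate differ in sign. Its direction also turned with edgeR (0.09) and DESeq2 (0.07) on recovered reads.

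Shares of the ligands are given per kilobase of the principal transcript. Tgfb3 made up 35.2% to 57.3% of the ligand total in cast libraries and 44.0% to 49.5% in naive libraries, and Tgfb1 29.3% to 55.2% in cast and 34.4% to 42.6% in naive libraries. Tgfb2 made up 7.601% to 13.4% in cast and 7.87% to 20.2% in naive libraries, the smallest share in every library. That order depends on the length used: with the union of exons Tgfb1 made up 15.5% to 35.3% in cast and 19.0% to 24.6% in naive libraries, and it was below Tgfb2 in naive replicates 1 and 2. The ligand total was 44.6 to 125 counts per kilobase in cast and 67.5 to 90.0 in naive libraries.

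The genes whose centred log2 profile over the 8 libraries differed least from that of each ligand were sought among 9817 genes with a mean of at least 10. For Tgfb1 they included Med16 and Ehmt2, both with a root-mean-square difference of 0.092 on the log2 scale. For Tgfb2 they were Gli2, Il1rl2 and Col1a2, with differences of 0.28, 0.30 and 0.31. For Tgfb3 they were Pmepa1, Nbl1 and Bach2, with differences of 0.20, 0.20 and 0.22. Pmepa1, which restrains Smad signalling and is itself a known target of TGF-beta, had 263, 80.5, 152 and 52.0 normalised counts in cast replicates 1 to 4, against 93.1, 127, 135 and 127 in naive replicates 1 to 4. As with Tgfb3, cast replicate 1 was the highest library and cast replicate 4 the lowest. Cast replicate 1 was also the highest library for Nbl1 and Bach2. The search picked genes for such likeness, so a shared order of libraries is not a separate result.

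Of the receptors, Tgfbr3 had all cast libraries above all naive ones, and the difference did not pass. Tgfbr3, or betaglycan, is a co-receptor that presents ligand, Tgfb2 above all, to the type II receptor, and that binds ligand when shed. Tgfbr3 (ENSMUSG00000029287.14, chromosome 5, 107106570 to 107289629, minus strand) had 779, 791, 629 and 756 normalised counts in cast replicates 1 to 4, against 482, 529, 549 and 501 in naive replicates 1 to 4. Groups with all 4 cast libraries above all 4 naive ones were found for 11.1% of tested genes. It averaged 739 ± 74.6 in cast and 515 ± 29.6 in naive capsules (SD, n = 4 each; log2 fold change 0.52, SE 0.17, 95% interval 0.13 to 0.90, adjusted p = 0.0819). The adjusted p of Tgfbr3 ranged from 0.00306 with DESeq2 on recovered reads to 0.289 when cast replicates 1 and 2 were left out, and its direction was the same in all 22 alternatives.

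Tgfbr2, the type II receptor that binds ligand first, overlapped between the groups and did not pass. Tgfbr2 (ENSMUSG00000032440.13, chromosome 9, 116084293 to 116175360, minus strand) had 396, 415, 345 and 332 normalised counts in cast replicates 1 to 4, against 381, 468, 364 and 365 in naive replicates 1 to 4. Its log2 fold change was -0.08 (95% interval -0.46 to 0.30, adjusted p = 0.795), and that interval spans folds of 0.726 to 1.23. Tgfbr1, the type I receptor kinase, lies on chromosome 4 (ENSMUSG00000007613.15, 47353222 to 47414931, plus strand). It had 134.3, 111, 136 and 112 normalised counts in cast replicates 1 to 4, against 140, 130, 139 and 32.3 in naive replicates 1 to 4. The value of naive replicate 4 stood apart, and it rested on 50 reads with an exact 95% Poisson interval of 24.0 to 42.6 normalised counts, which covers counting error only. The log2 fold change of Tgfbr1 was 0.36 with all libraries (95% interval -0.60 to 1.32, adjusted p = 0.638) and -0.15 without naive replicate 4 (adjusted p = 0.462), so the direction turned without that library. With the muscle covariate the log2 fold change of Tgfbr1 was 1.64 and the gene passed (adjusted p = 0.0184), and with array weights it was -0.11. Naive replicate 4 was the only naive library with a muscle marker sum within the cast range (98.3, against 14.0 to 323 in cast). The covariate fit thus rests heavily on that library, and whether the call stands without it was not tested.

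Within the receptor family, the share of Tgfbr3 per kilobase of the principal transcript was 45.7% to 51.9% in cast libraries, against 35.6% to 42.7% in naive libraries. Tgfbr2 made up 39.9% to 44.5% in cast and 47.8% to 55.1% in naive libraries. Neither share overlapped between the groups. Shares of a family add up to a fixed whole, so these are not separate results. The counts of Tgfbr2 themselves overlapped between the groups. With the union of exons Tgfbr3 made up 60.4% to 66.7% in cast and 51.2% to 60.7% in naive libraries, which overlapped, and it was above Tgfbr2 in every library. Tgfbr2 then made up 23.4% to 26.9% in cast and 29.7% to 36.2% in naive libraries. Per kilobase of the principal transcript, Tgfbr1 was the smallest share, at 7.17% to 10.4% in cast and 2.91% to 11.4% in naive libraries.

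Set side by side per kilobase of the principal transcript, the members kept much of their order between the groups, and Ltbp4 moved most. In cast capsules the order by mean was Tgfbr3 (121 counts per kilobase), Tgfbr2 (107), Ltbp1 (91.7), Ltbp3 (50.4), Tgfb3 (37.98), Tgfb1 (32.1), Ltbp4 (24.8), Tgfbr1 (21.4), Ltbp2 (9.42) and Tgfb2 (8.71). In naive capsules it was Tgfbr2 (113), Ltbp4 (87.7), Tgfbr3 (84.6), Ltbp1 (70.8), Ltbp3 (60.6), Tgfb3 (36.2), Tgfb1 (29.2), Tgfbr1 (19.2), Tgfb2 (11.9) and Ltbp2 (3.81). Ltbp4 was thus the 7th of 10 in cast and the 2nd in naive capsules. Neighbours in these orders overlapped in range over the libraries, except Ltbp1 and Ltbp3 in cast capsules and, in naive capsules, Tgfbr2 and Ltbp4, Ltbp3 and Tgfb3, and Tgfb2 and Ltbp2. With the union of all exons as the length, Ltbp4 was the 6th in cast and the 2nd in naive capsules, and Tgfbr3 came first in both.

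Spread within a group differed between members. The coefficient of variation was 65.5% in cast and 33.2% in naive capsules for Tgfb2, 62.8% in cast and 16.9% in naive capsules for Tgfb3, and 72.2% in cast and 29.0% in naive capsules for Ltbp2. For Tgfb1 it was 21.7% in cast and 23.4% in naive capsules. Cast replicate 1 was the highest cast library for 5 members, namely Tgfb2, Tgfb3, Ltbp2, Ltbp3 and Ltbp4. Cast replicate 4 was the lowest cast library for 6, namely all 3 ligands, Tgfbr2, Ltbp2 and Ltbp3. Tgfb3 differed by 3.88-fold between these libraries, and Tgfb2 by 4.94-fold. Collagen I moved with them: Col1a1 had 8473 normalised counts in cast replicate 1 and 1075 in cast replicate 4, against 2045 to 6363 in naive libraries. Cast replicate 1 also had the highest sum of chondrocyte markers (6 of 8 in the table), at 164 against 24.3 to 66.8 in the other cast libraries and 28.4 to 48.1 in naive libraries. Cast replicate 1 was also the highest cast library for osteoblast markers (8 of 8), at 226 against 115 to 195 in the others. Its sum of capsule fibroblast markers, 25592, was the highest too, but that sum includes Col1a1 (8473) and Col1a2 (8907). Dcn, of the same list, went the other way. It had 3247 normalised counts in cast replicate 1, the lowest of all libraries, and 11958 in cast replicate 4, the highest. Fat cell markers (8 of 8) summed to 3605, 6253, 4592 and 9691 in cast replicates 1 to 4, the reverse of the order of Tgfb2 and Tgfb3, and to 7142 to 11607 in naive libraries. The part of these cells in the values of the cast libraries was not tested.

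Further genes of the pathway were read from 5 lists, of 61 genes in all, each of which was tested. Of these, 4 rose, 5 fell and 52 did not pass, which compares with 6.51% higher and 5.46% lower over all tested genes. The median log2 fold change of the 61 was -0.02.

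Of 14 genes listed for the anchoring and activation of the latent complex or its control, 1 rose and 13 did not pass (median 0.18). Emilin1, a microfibril protein that in mice blocks the processing of the TGF-beta precursor, averaged 91.8 ± 27.2 in cast and 47.0 ± 8.31 in naive capsules (log2 fold change 0.91, adjusted p = 0.0423). Its groups overlapped, with 55.6 normalised counts in cast replicate 4 and 56.1 in naive replicate 2. The call for Emilin1 was lost in 10 of 22 alternatives, among them without each of cast replicates 1, 2 and 3 (adjusted p = 0.0796, 0.118 and 0.128) and naive replicates 1, 2 and 3 (adjusted p = 0.0702, 0.0668 and 0.113). Fbn1, the main fibrillin to which LTBPs bind, had 1376, 1427, 1437 and 605 normalised counts in cast replicates 1 to 4, against 1543, 1832, 827 and 1387 in naive replicates 1 to 4 (log2 fold change -0.23, adjusted p = 0.722). Thbs1, Itgav and Nrros, which activate or hold latent TGF-beta, gave log2 fold changes of 0.38, -0.27 and -0.02, with adjusted p = 0.583, 0.619 and 0.949.

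Of 9 co-receptors and ligand-binding proteins, 1 fell and 8 did not pass (median 0.11). Cd109, a surface protein that in human keratinocytes restrains TGF-beta signalling, averaged 116 ± 12.0 in cast and 313 ± 88.8 in naive capsules (log2 fold change -1.38, adjusted p = 0.00652). The call for Cd109 was lost with the muscle covariate (-0.89, adjusted p = 0.0543), and also when cast replicates 1 and 2 were left out (-1.40, adjusted p = 0.0569). Eng, or endoglin, the co-receptor of endothelial cells, averaged 160 ± 19.2 in cast and 148 ± 27.1 in naive capsules (log2 fold change 0.11, adjusted p = 0.726).

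Of 8 Smad transducers and cofactors, none passed in the main limma fit, nor with edgeR or DESeq2 (median -0.01). The main fit gave 1 with p under 0.05 before adjustment. That 1 gene was Smad3, at 90.2 ± 16.8 in cast and 118 ± 10.8 in naive capsules (log2 fold change -0.39, adjusted p = 0.185). In other settings, Zfyve9 passed with array weights and without naive replicate 4, whether or not cast replicate 1 was also left out. Trim33 passed with the muscle covariate. Of 11 feedback and inhibition genes, 1 fell and 10 did not pass (median -0.13). Ski, a corepressor of Smad complexes, averaged 252 ± 68.0 in cast and 452 ± 61.5 in naive capsules (log2 fold change -0.87, adjusted p = 0.0321). Its call was lost in 7 of 22 alternatives, among them without cast replicate 2, 3 or 4 (adjusted p = 0.0530, 0.102 and 0.0787) and without naive replicate 1, 2 or 3 (adjusted p = 0.0676, 0.0936 and 0.0720). Smad7, Skil and Pmepa1, feedback inhibitors that are induced by TGF-beta itself, gave log2 fold changes of -0.06, -0.10 and -0.07, with adjusted p = 0.909, 0.880 and 0.939. The directions of all 3 turned in some alternatives.

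Of 19 target genes, 3 rose, 3 fell and 13 did not pass (median -0.20), so those that passed went both ways. Lox, the enzyme that crosslinks collagen and elastin, averaged 696 ± 310 in cast and 168 ± 49.2 in naive capsules (log2 fold change 2.02, adjusted p = 0.00493). Lox passed in all 22 alternatives. Il11, a cytokine of fibrotic fibroblasts, averaged 4.08 ± 3.29 in cast and 0.554 ± 0.185 in naive capsules (log2 fold change 1.54, adjusted p = 0.0244). The Il11 values are low and rest on 115 cast and 11 naive reads over all libraries. Nox4, an NADPH oxidase that TGF-beta induces in fibroblasts, averaged 145 ± 72.9 in cast and 37.6 ± 21.2 in naive capsules (log2 fold change 2.09, adjusted p = 0.0457).
Ctgf, or Ccn2, a matricellular protein also driven by stretch, averaged 207 ± 120 in cast and 668 ± 190 in naive capsules (log2 fold change -1.82, adjusted p = 0.0182). Fn1, fibronectin, averaged 7218 ± 3619 in cast and 23602 ± 6355 in naive capsules (log2 fold change -1.81, adjusted p = 0.0390). Nox4 and Fn1 are named here outside the rule for named genes, after their values were seen. Apart from Lox, each of these calls was lost without 1 library, most often without cast replicate 3 or naive replicate 2 or 3. Without cast replicate 3 the adjusted p was 0.0588 for Ctgf, 0.118 for Fn1 and 0.0766 for Nox4. Without naive replicate 3 it was 0.0546 for Ctgf, 0.0722 for Fn1, 0.0547 for Nox4 and 0.0691 for Il11. Without naive replicate 2 it was 0.0573 for Ctgf, 0.0980 for Fn1, 0.0865 for Nox4 and 0.0664 for Il11. Without naive replicate 1 it was 0.0922 for Fn1 and 0.0528 for Nox4, and without cast replicate 4 it was 0.0814 for Fn1 and 0.105 for Nox4. Nox4 was also lost without cast replicate 1 (adjusted p = 0.113) or 2 (adjusted p = 0.0677). With the muscle covariate Ctgf (-1.02, adjusted p = 0.173), Fn1 (-1.72, adjusted p = 0.154) and Il11 (1.19, adjusted p = 0.135) were lost, while Nox4 was 4.198 and passed. Nox4 had 7.76 normalised counts in naive replicate 4, against 37.6 to 55.1 in the other naive libraries. The log2 fold change of Nox4 was 1.22 with array weights. For Il11 it was 0.65 with a pseudocount of 5 (adjusted p = 0.0578), 2.88 with edgeR and 2.91 with DESeq2.

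The remaining panel genes of the target list did not pass with limma on all libraries. Tgfbi, an adhesive matrix protein named for its induction by TGF-beta, was 458, 473, 615 and 389 in cast replicates 1 to 4, against 749, 642, 890 and 1259 normalised counts in naive replicates 1 to 4 (log2 fold change -0.84, adjusted p = 0.0581). Every cast library was below every naive library, which held for 9.39% of tested genes. Tgfbi passed with edgeR (-0.85, adjusted p = 0.0475), DESeq2 (-0.88, adjusted p = 0.00773), array weights (-0.62, adjusted p = 0.0324) and the muscle covariate (-1.37, adjusted p = 0.0160). Acta2, the smooth muscle actin of myofibroblasts and vessel walls, was 323, 252, 293 and 280 in cast replicates 1 to 4, against 137, 198, 197 and 375 in naive replicates 1 to 4 (log2 fold change 0.43, adjusted p = 0.368). The 3 lowest libraries were naive, and naive replicate 4 was the highest. Acta2 passed with array weights (0.66, adjusted p = 0.0142). Without naive replicate 4 the log2 fold change of Acta2 was 0.70 (adjusted p = 0.0201) and that of Tgfbi -0.66 (adjusted p = 0.0486). In that fit 16 of the 61 pathway genes passed, against 9 with all libraries. Calls over all genes also rose, from 1810 to 2665. Col1a1 had a log2 fold change of -0.20 (95% interval -1.55 to 1.16, adjusted p = 0.867), with cast libraries above and below the naive range.

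**Figure D4:**
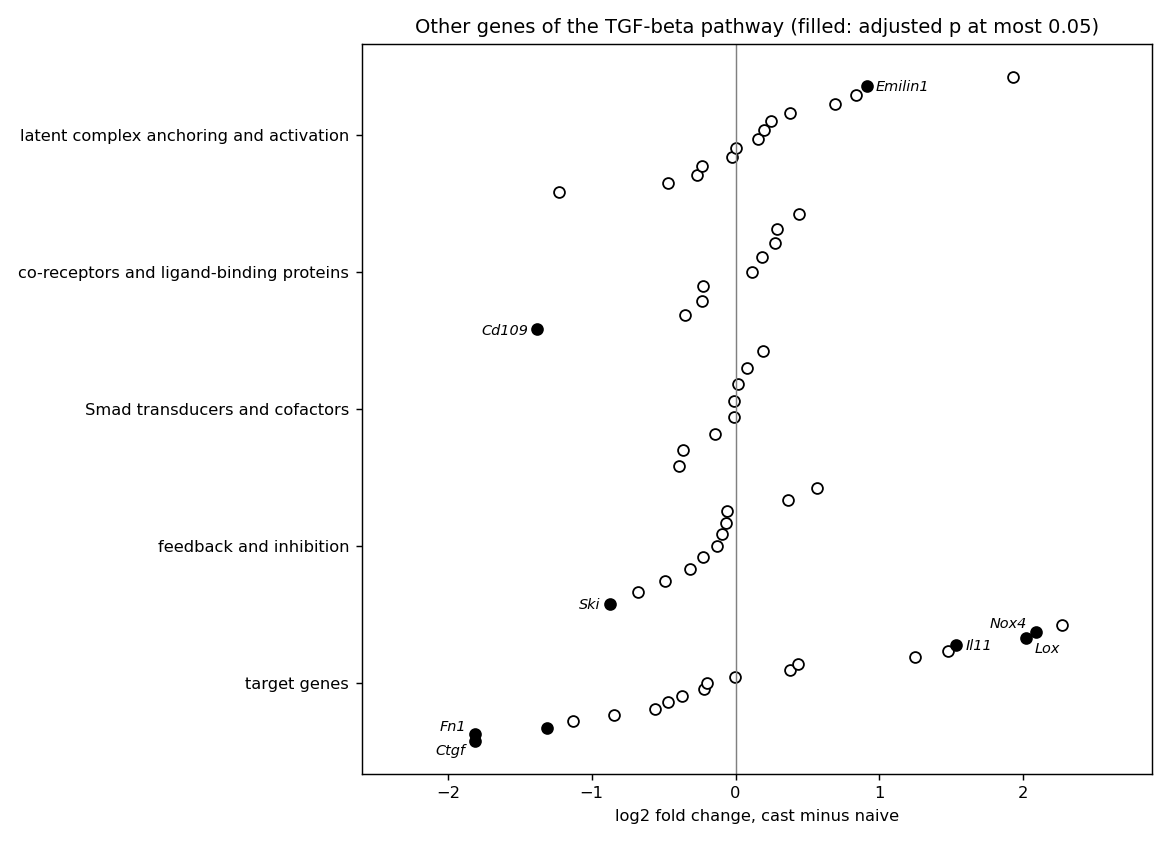
Log2 fold change, cast minus naive (horizontal axis), of the 61 further genes of the pathway in 5 lists (vertical axis), filled where the adjusted p was at most 0.05. Of the 9 points that passed, 8 are named, with Lox, Nox4, Il11 and Emilin1 above 0 and Ctgf, Fn1, Cd109 and Ski below 0.

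**Figure D5:**
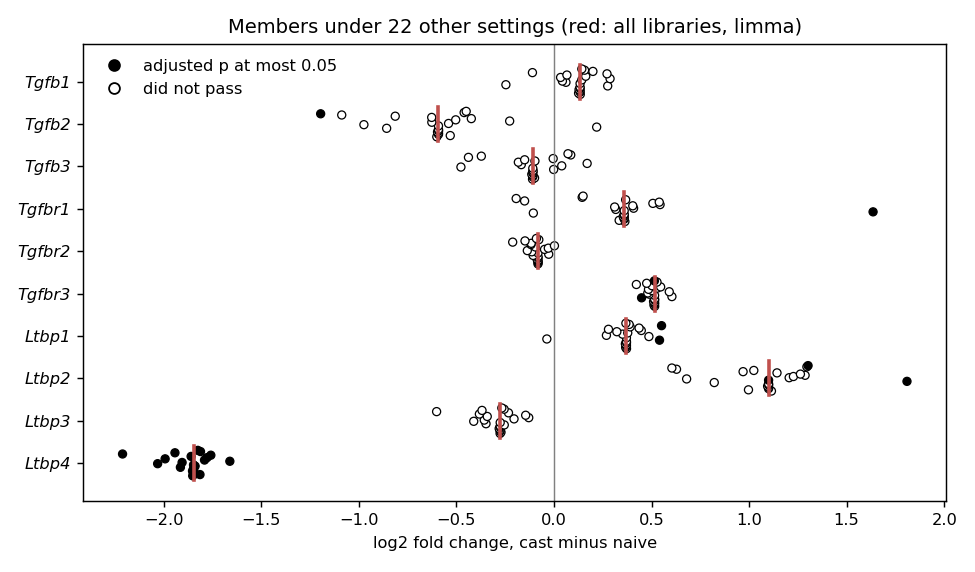
Log2 fold change, cast minus naive (horizontal axis), of each member under 22 other settings (points, filled where the adjusted p was at most 0.05) and with all libraries in limma (red line). Ltbp4 stays between -2.21 and -1.66 and is filled in all 22, while Tgfb1, Tgfb2, Tgfb3, Tgfbr1, Tgfbr2 and Ltbp1 have points on both sides of 0.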

How the data were processed

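Per the labels' protocols, posterior capsules were frozen, RNA was taken with Trizol, and directional libraries were made after depletion of ribosomal RNA and sequenced as paired reads. The protocol text names Trimmomatic 0.38 and the human build hg38, while the mouse build mm10, Trimmomatic 0.36, RSEM, Bowtie2 and edgeR stand in the submitters' processing notes. These conflict, and the symbols are those of mouse genes. The table that the authors deposited holds a signal (read counts after normalisation) for each gene in each library. In each library 100.0% of values were whole multiples of the value of 1 read, within 0.01, and whole reads were recovered from them.

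Values were taken to log2 after adding 1, genes averaging under 0.5 were left out, and groups were compared with limma-trend at a Benjamini-Hochberg adjusted p of 0.05, with all 15120 genes in 1 fit. edgeR quasi-likelihood called 2039 and DESeq2 2754 genes on the recovered reads, against 1810 with limma. Gene coordinates and lengths came from GENCODE M21 (GRCm38), which 15795 of the symbols (95.9%) matched. Other settings were pseudocounts, filters, scalings, limma without a trend, array weights, a covariate for muscle markers (their mean log2 level), a block for the replicate number, and libraries left out. The members, lists and alternatives were chosen with earlier results of these data known. Named genes were all members, the up to 4 genes of smallest p past the threshold in each list, a panel of 14, and 3 genes nearest each ligand. Some genes that this rule names are not reported here, although counts of lists include them. The test was checked on simulated data. Tests used DESeq2 1.42.0, limma 3.58.1 and edgeR 4.0.16 in R 4.3.3, and tables and plots used matplotlib 3.10.9 and pandas 2.3.3 in Python 3.11.15.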

Additional observations from a re-analysis of the deposited data

Results flagged for a closer look

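In groups of 4 libraries, the highest or lowest value was set against its nearest neighbour as a share of the whole range, and marked where that share passed Dixon's critical value. Of 64 groups checked, 8 had a library that stood apart, and chance marks about 1 in 20 such groups. Among the members, Ltbp2 was 129 in cast replicate 1 against 35.9 to 42.7 in the other cast libraries. Tgfbr1 was 32.3 in naive replicate 4 against 130 to 140 in naive replicates 1 to 3, and Tgfbr2 was 468 in naive replicate 2 against 364 to 381 in the others. Among the other pathway genes, Lox was 1158 in cast replicate 1 against 496 to 585, Il11 was 8.999 in cast replicate 3 against 2.25 to 2.80, and Fbn1 was 605 in cast replicate 4 against 1376 to 1437. Itgav was 114 in naive replicate 4 against 252 to 278 in the other naive libraries. The recovered reads of naive replicate 4 numbered 1503880, against 6038095 to 6805349 in the other naive libraries.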

How the results depend on the processing

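Ltbp4 kept its direction and passed in all 22 alternatives (log2 fold change -2.21 to -1.66, adjusted p at most 0.0161). Leaving out 1 library at a time gave 1 changed member throughout, 916 (without cast replicate 3) to 2665 (without naive replicate 4) changed genes, and 2 (without naive replicate 3) to 16 (without naive replicate 4) changed pathway genes. Array weights gave 3 changed members, 19 pathway genes and 3985 genes. The muscle covariate gave 3 members and 4143 genes. Muscle marker sums were higher in naive replicates 1 to 3 than in every cast library, so this covariate partly follows the groups. DESeq2 gave 3 members, 17 pathway genes and 2754 genes, and edgeR gave 14 pathway genes. Without cast replicates 1 and 2 there were 4 pathway genes and 717 genes. Without naive replicate 4 and cast replicate 1, chosen after seeing the data, there were 3 members, 16 pathway genes and 3278 genes. The replicate block gave 2 members (Ltbp2, adjusted p = 0.0426, and Ltbp4). Deviations of same-numbered libraries correlated at -0.06 to 0.08, and no cast library correlated best with its own number. These deviations were taken from each group's own mean and also carry differences in tissue and depth. They therefore cannot show whether same-numbered libraries were handled together.

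Directions turned only in genes that had not passed, and the cause was not tested. With the muscle covariate the log2 fold change was -0.25 for Tgfb1, 0.22 for Tgfb2, -0.037 for Ltbp1, 0.15 for Col1a1, -0.16 for Acta2, 0.040 for Smad7, 0.83 for Skil, 0.20 for Pmepa1, -0.30 for Eng and 0.42 for Itgav. With edgeR and DESeq2 it was 0.086 and 0.072 for Tgfb3, 0.035 and 0.033 for Col1a1, and 0.19 and 0.18 for Pmepa1. With array weights it was -0.11 for Tgfbr1 and 0.14 for Nrros. Without cast replicates 1 and 2 it was -0.11 for Tgfb1, 0.034 for Nrros and -0.034 for Thbs1. Over the fits that left out 1 library, or naive replicate 4 with cast replicate 1, it ranged over -0.48 to 0.17 for Tgfb3, -0.19 to 0.54 for Tgfbr1, -0.15 to 0.0022 for Tgfbr2, -0.72 to 0.34 for Col1a1, -0.24 to 0.14 for Smad7, -0.53 to 0.062 for Skil, -0.46 to 0.31 for Pmepa1, -0.46 to 0.075 for Fbn1 and -0.13 to 0.17 for Nrros. Naive replicate 4, with the fewest reads, limits the precision of low members.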
